A study of Homo sapiens with 6 samples.

Results

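LIN28A and LIN28B, the insulin-like growth factor 2 mRNA-binding proteins IGF2BP1, IGF2BP2 and IGF2BP3, the chromatin proteins HMGA1 and HMGA2, and the DNA-binding protein ARID3B were followed through the differentiation of a human embryonic stem cell line. The 8 genes were taken by name, as LIN28 and the oncofetal genes known to be regulated by the let-7 microRNAs. Of these, 7 had a probe set of their own among the 18417 genes measured. HMGA2 lay on a probe set that the platform annotation assigns to ELAC2 as well, so it has no value of its own and is not counted.

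LIN28A and LIN28B are RNA-binding proteins that bind the precursors of let-7 microRNAs and block their maturation, and let-7 in turn represses the LIN28 messenger RNAs. The same microRNA family represses the messenger RNAs of the IGF2BP proteins, of HMGA1 and HMGA2 and of ARID3B. Several of these are abundant in embryonic tissue and fall in most tissues as they mature. High LIN28 is a mark of pluripotent stem cells, while mature let-7 accumulates in differentiated cells.

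All 3 groups came from WA09, which is an established embryonic stem cell line also known as H9. Smooth muscle cells (SMC) had been cultured for 21 days and ISL1-positive nascent mesoderm (INM) for 4 days with Wnt3a (25 ng/ml) plus BMP4 (50 ng/ml) added to defined medium, and undifferentiated cells (hESC) had been kept in StemPro medium. Total RNA from 2 samples of each group was hybridised to Affymetrix arrays, 1 array per sample. The labels do not say whether samples of a group were separate cultures, and p-values therefore cover the spread between these samples alone, possibly technical spread. Fewer cells of a type and less RNA per cell cannot be told apart in such bulk samples. With 2 arrays per group, 0.333 is the smallest two-sided p of an exact permutation test, so tests come from a limma model, fitted to all 6 arrays and 18417 genes unless a sentence names another setting. Second probe sets of a gene were tested over all 33297 probe sets. Genes with an adjusted p under 0.05 were called.

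Values are log2 RMA signals, changes are differences of group means on that scale with their standard error (SE), and folds are ratios of the signals. Of 9 stem cell markers measured, 7 fell in INM against hESC and 9 fell in SMC against hESC, and SOX2 read 11.44 and 11.47 on the hESC arrays, 5.63 and 5.81 on the INM arrays and 5.76 and 5.61 on the SMC arrays. All 10 markers of ISL1 mesoderm rose in INM against hESC, and all 10 were also higher in SMC against hESC. Of 12 smooth muscle markers, 9 rose in SMC against hESC and 8 in INM against hESC. The label was less clear between the derivatives: 4 of the 12 rose in SMC against INM, 7 were not called and MYOCD, a coactivator of smooth muscle genes, fell (-1.74). MYH11 was not called in any comparison. Both derivatives carried markers of other cell types. In INM, 5 of 6 trophoblast and amnion markers rose in INM against hESC, and their mean level was 9.78 and 9.10 in INM, against 5.84 and 5.62 in hESC. Of those 5, HAND1 is also an ISL1 mesoderm marker. In SMC, 3 of 7 endothelial markers rose against hESC, PECAM1 (1.43), CDH5 (0.95) and ERG (2.04), and the list's mean level was 7.47 and 7.44 in SMC, against 6.71 and 6.68 in hESC. PECAM1 and ERG also rose against INM (1.24 and 1.35). Over all genes, 18.9% rose and 14.8% fell in INM against hESC, and 19.7% rose and 17.6% fell in SMC against hESC. In SMC against INM, 9.94% rose and 11.1% fell. The part of these marker lists in the results below was not tested. The INM arrays also stood further apart than the other pairs, with a root mean square SD of 0.313 over genes, against 0.132 in SMC and 0.149 in hESC.

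Of the 7 genes measured, 6 fell in SMC against hESC and none rose, where 37.2% of all genes were called, 17.6% lower and 19.7% higher. The F test over the 3 groups called the same 6, where 45.5% of all genes were called. LIN28A fell 53.8-fold in SMC against hESC, ARID3B 5.24-fold, LIN28B 4.57-fold, HMGA1 4.1-fold, IGF2BP3 2.44-fold and IGF2BP1 1.38-fold. The SMC means of LIN28A (6.34) and LIN28B (6.75) were higher than those of 34.9% and 42.6% of genes. They are not shown to lie above background, so folds that use them are ratios of signal and may not measure the change in RNA. IGF2BP2 was called in no comparison. The probe set shared by HMGA2 and ELAC2, which is not counted, went the other way. It read 9.4 and 9.17 on the hESC arrays, 11.18 and 10.49 on the INM arrays and 11.23 and 11.2 on the SMC arrays. Which of these genes that signal reflects cannot be told. In INM, where 33.8% of all genes were called against hESC, 1 of the 7 genes rose (IGF2BP1, 1.54-fold; 18.9% of all genes rose) and 1 fell (HMGA1, 1.94-fold; 14.8% of all genes fell). In SMC against INM, where 21.0% of all genes were called (11.1% lower and 9.94% higher), 6 of 7 fell.

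LIN28A, on chromosome 1 (chr1:26410817-26429728, GRCh38.p14), gave the widest range. The log2 signal read 12.10 and 12.08 on the hESC arrays, 10.39 and 11.76 on the INM arrays and 6.46 and 6.21 on the SMC arrays. Both SMC arrays lay far below all others, and the INM arrays lay below hESC without overlap. INM replicate 1 minus replicate 2 was -1.37, and 98.2% of genes had a smaller gap. LIN28A averaged 6.34 ± 0.17 in SMC and 11.07 ± 0.97 in INM (SD, n = 2 each), a log2 change of -4.74 (SE 0.40, limma adjusted p = 6.6e-04) or 26.6-fold. Against hESC, at 12.09 ± 0.02, the change in SMC was -5.75 (SE 0.40, limma adjusted p = 1.2e-04). The change in INM against hESC, -1.02 with a 95% interval of -1.97 to -0.06, was not called (SE 0.40, limma adjusted p = 0.095). It was -0.33 without INM replicate 1 and -1.70 without INM replicate 2, so its size turned on the INM array used. Each of these fits holds 1 INM array, so its error leaves out the spread between the INM arrays. A second LIN28A probe set, not used in the count, also fell in SMC, with changes of -4.73 against hESC and -3.45 against INM. The reference table lists 3 LIN28A pseudogenes, and hybridisation of their transcripts to either probe set was not tested.

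LIN28B, the paralogue on chromosome 6 (chr6:104937026-105083332), had its highest arrays in INM. The signal of LIN28B was 8.82 and 9.06 on the hESC arrays, 9.27 and 9.97 on the INM arrays and 7.02 and 6.48 on the SMC arrays. Here the INM arrays lay above the hESC arrays and the SMC arrays below both, with no overlap. LIN28B averaged 6.75 ± 0.38 in SMC and 9.62 ± 0.50 in INM (SD, n = 2 each), a change of -2.87 (SE 0.27, limma adjusted p = 0.0011) or 7.32-fold. In SMC against hESC, at 8.94 ± 0.17, the change was -2.19 (SE 0.27, limma adjusted p = 0.00132). In INM against hESC the change was 0.68 (95% interval 0.02 to 1.34) and was not called (SE 0.27, limma adjusted p = 0.102). Without INM replicate 1 it was 1.03, and without INM replicate 2 it was 0.33. The difference between the changes of LIN28A and LIN28B in INM was not tested.

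**Figure D1:**
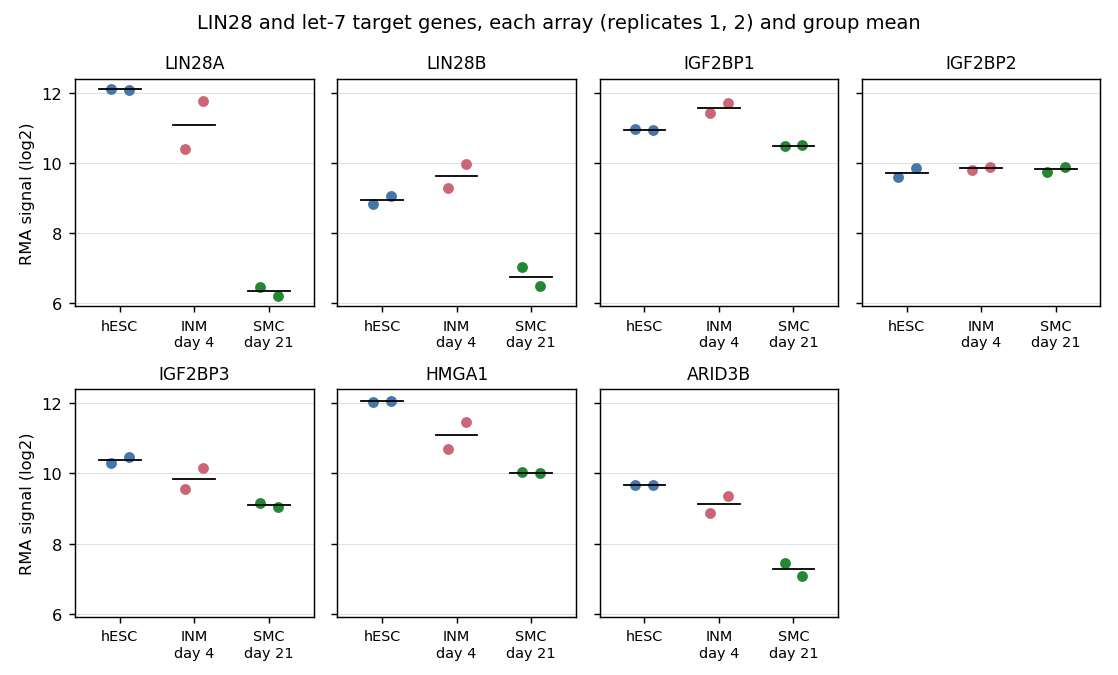
Log2 RMA signal of the 7 measured genes on each of the 6 arrays, 1 panel per gene, with points for single arrays and bars for group means. LIN28A spans 6.21 to 12.10, its INM arrays are the most widely spaced pair, and IGF2BP2 stays between 9.60 and 9.88.

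The IGF2BP proteins bind messenger RNAs and affect their stability, transport and translation. IGF2BP1, on chromosome 17 (chr17:48996558-49056145), was the only one of the 7 genes called higher in INM. For IGF2BP1 the log2 signal was 10.95 and 10.94 on the hESC arrays, 11.43 and 11.71 on the INM arrays and 10.47 and 10.50 on the SMC arrays. The INM arrays were highest and the SMC arrays lowest, without overlap. It averaged 11.57 ± 0.20 in INM and 10.95 ± 0.01 in hESC (SD, n = 2 each), a change of 0.63 (SE 0.13, limma adjusted p = 0.0122). Without hESC replicate 1 or 2 this rise was not called (adjusted p = 0.0733 and 0.0701). In SMC, at 10.49 ± 0.02, IGF2BP1 changed by -1.09 against INM (SE 0.13, limma adjusted p = 0.00253) and by -0.46 against hESC (SE 0.13, limma adjusted p = 0.032). The fall against hESC was not called when the arrays were centred on their medians (-0.33, adjusted p = 0.108) or when either hESC or either SMC array was left out (adjusted p = 0.123 to 0.154).

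IGF2BP3, on chromosome 7 (chr7:23310209-23470491), was lowest in SMC. Its signals were 10.31 and 10.47 on the hESC arrays, 9.55 and 10.16 on the INM arrays and 9.16 and 9.04 on the SMC arrays, with no overlap between groups. The change in SMC against hESC was -1.29 (SE 0.20, limma adjusted p = 0.00344) and in SMC against INM -0.75 (SE 0.20, limma adjusted p = 0.0443). The SMC against INM call was lost without either hESC array (adjusted p = 0.0919) and without SMC replicate 1 or 2 (adjusted p = 0.162 and 0.223), and the change was -1.05 without INM replicate 1 and -0.45 without INM replicate 2. In INM against hESC the change of -0.53 was not called (SE 0.20, limma adjusted p = 0.0889). It was -0.23 without INM replicate 1 and -0.84 without INM replicate 2. IGF2BP2, on chromosome 3 (chr3:185643130-185825042), read 9.60 and 9.84 on the hESC arrays, 9.80 and 9.88 on the INM arrays and 9.75 and 9.87 on the SMC arrays. Its groups overlapped in every comparison. The 95% intervals of its changes were -0.22 to 0.40 in SMC against hESC, -0.34 to 0.28 in SMC against INM and -0.19 to 0.43 in INM against hESC, which leaves out a change the size of that of IGF2BP3 in SMC against hESC. The difference between the paralogues was not itself tested.

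HMGA1, on chromosome 6 (chr6:34236873-34246231), bends AT-rich DNA and shapes chromatin. HMGA1 gave log2 signals of 12.04 and 12.07 on the hESC arrays, 10.71 and 11.47 on the INM arrays and 10.03 and 10.00 on the SMC arrays. The groups did not overlap, and INM lay between the other groups. It averaged 12.05 ± 0.02 in hESC, 11.09 ± 0.54 in INM and 10.02 ± 0.02 in SMC (SD, n = 2 each). The change was -2.03 in SMC against hESC (SE 0.23, limma adjusted p = 9.5e-04), -1.07 in SMC against INM (SE 0.23, limma adjusted p = 0.0219) and -0.96 in INM against hESC (SE 0.23, limma adjusted p = 0.0217). The INM against hESC call was lost without either hESC array (adjusted p = 0.108 and 0.106) or either SMC array (0.0539), and the change was -0.58 without INM replicate 1 and -1.34 without INM replicate 2. The SMC against INM call was lost without either hESC array (0.06) or either SMC array (0.123 and 0.136), and was -1.45 without INM replicate 1 and -0.70 without INM replicate 2. Both other HMGA1 probe sets were called lower in all 3 comparisons, with changes of -0.85 and -0.95 in INM against hESC. The reference table lists 8 HMGA1 pseudogenes, and hybridisation of their transcripts to these probes was not tested.

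ARID3B, on chromosome 15 (chr15:74541220-74598131), is a DNA-binding protein of the AT-rich interaction domain family. It read 9.66 on both hESC arrays, 8.88 and 9.37 on the INM arrays and 7.45 and 7.08 on the SMC arrays. The SMC arrays lay below all others, and the INM arrays lay below hESC. The change was -1.86 in SMC against INM (SE 0.20, limma adjusted p = 0.00167) and -2.39 in SMC against hESC (SE 0.20, limma adjusted p = 2.6e-04). In INM against hESC it was -0.53 and was not called (SE 0.20, limma adjusted p = 0.0834). This change was -0.29 without INM replicate 1 and -0.78 without INM replicate 2. A second ARID3B probe set divided the fall otherwise. It was called in INM against hESC (-0.95, limma adjusted p = 0.0207) and not in SMC against INM (-0.64, limma adjusted p = 0.101). Its change in SMC against hESC was -1.59 (limma adjusted p = 0.00372). The reference table lists 1 ARID3B pseudogene, and which locus each probe set reads was not tested.

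**Figure D2:**
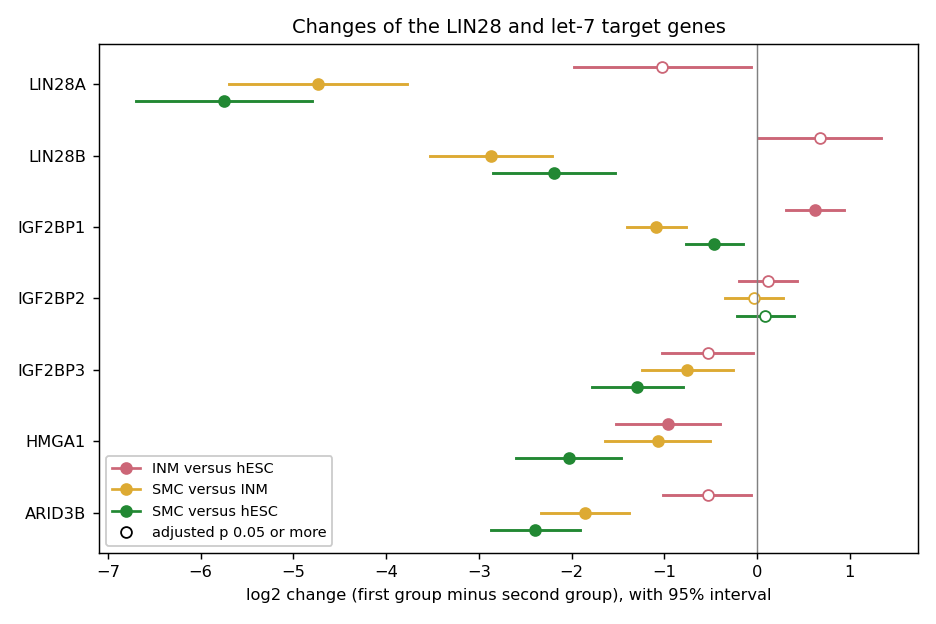
Log2 change of each of the 7 genes in INM against hESC, SMC against INM and SMC against hESC, with 95% intervals. Open points had a limma adjusted p of at least 0.05. All points except those of IGF2BP2 lie left of 0 in both SMC comparisons, and LIN28B and IGF2BP1 lie right of 0 in INM against hESC.

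Groups did not overlap for 6 of 7 genes in each comparison, against a background of 68.2% of all genes in INM against hESC, 62.0% in SMC against INM and 75.3% in SMC against hESC. The median change of the 7 genes was -0.53 in INM against hESC (all genes -0.03), -1.09 in SMC against INM (all genes -0.02) and -2.03 in SMC against hESC (all genes -0.05). These comparisons share arrays. On the probe sets used, all 7 genes read higher in INM replicate 2 than in INM replicate 1, while 51.2% of all genes did so. The median difference was -0.60 for replicate 1 minus replicate 2, and that of IGF2BP2 was -0.08. The second ARID3B probe set went the other way (7.53 in INM replicate 1 and 7.04 in replicate 2), and the other probe sets of LIN28A and HMGA1 alone did not. All 20 mitosis genes were also higher in INM replicate 2, with a median difference of -1.09, and the stem cell markers were higher there in 6 of 9 cases, with a median of -0.18. The part of the mitosis genes in the LIN28A and HMGA1 values was not tested.

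The mitosis genes themselves gave a mean level of 9.80 and 9.92 on the hESC arrays, 9.06 and 10.19 on the INM arrays and 8.95 and 8.87 on the SMC arrays. Of these 20 genes, 7 fell in SMC against hESC, where 17.6% of all genes fell. Among them were CENPF (-1.68), BUB1B (-1.62), BUB1 (-1.43), CENPE (-1.36) and MKI67 (-1.29), with a list median of -0.89. All 20 were called lower when only the SMC and hESC arrays were fitted. BUB1B alone fell in INM against hESC (-1.14) and CENPF alone in SMC against INM (-1.11). The direction in INM against hESC differed between the INM arrays. The list mean of INM replicate 1 (9.06) lay below both hESC arrays, and that of INM replicate 2 (10.19) above both. Both INM means lay above the SMC means. Fits with 1 INM array leave the INM spread out of their error, so their counts are not comparable with those above. Neither BUB1B nor CENPF was called without either hESC or either SMC array (adjusted p up to 0.144 for BUB1B and 0.206 for CENPF). Of the falls named in SMC against hESC, those of BUB1, CENPE and MKI67 were lost without either hESC or either SMC array (adjusted p = 0.0514 to 0.173), and that of BUB1B without hESC replicate 1 or 2 or SMC replicate 2 (adjusted p = 0.0548 to 0.0629).

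For each gene called by the F test, the 3 nearest profiles were taken by the root mean square distance over the 6 arrays after centring each profile on its mean. LIN28A was nearest to PROM1 (0.44), EPCAM (0.53) and CDH1 (0.53), and LIN28B to TFAP2C (0.18), HPGD (0.19) and VAMP8 (0.21). IGF2BP1 was nearest to MIXL1 (0.04), ZNF876P (0.07) and TOPBP1 (0.07), and IGF2BP3 to HSD17B7P2 (0.04), CACYBP (0.05) and HOMER1 (0.06). HMGA1 was nearest to DHRS3 (0.07), SEPTIN3 (0.08) and SLC7A8 (0.09), and ARID3B to PTGIS (0.10), WFDC2 (0.11) and PLEKHH1 (0.15). These distances grow with the range of a profile, so they are not comparable between genes of different range.

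The mature let-7 microRNAs share the seed, bases 2 to 8, by which they pair with their targets. Those whose precursor gene was called in any comparison are shown with the seed in capitals. The complement of the seed in a messenger RNA is CUACCUC. The let-7 targets below were listed by name, and messenger RNAs were not searched for this complement. The sequences are those of RefSeq.
hsa-let-7a-5p: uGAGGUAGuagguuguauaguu
hsa-let-7d-5p: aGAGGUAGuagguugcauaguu
hsa-let-7e-5p: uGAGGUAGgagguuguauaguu
hsa-let-7f-5p: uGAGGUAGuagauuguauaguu
hsa-let-7g-5p: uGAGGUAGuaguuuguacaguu
hsa-let-7i-5p: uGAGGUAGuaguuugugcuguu

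LIN28 proteins contact a GGAG motif in the terminal loop region of let-7 precursors. The hairpins of the 3 precursor genes whose signal changed most are shown from RefSeq (GRCh38.p14), with GGAG after the 5p arm in capitals. It lies 4 bases before the 3p arm in each. MIRLET7A2 lies at chr11:122146522-122146593 on the minus strand, MIRLET7F1 at chr9:94176347-94176433 on the plus strand and MIRLET7G at chr3:52268278-52268361 on the minus strand, within WDR82. GGAG occurred after the 5p arm on the RNA strand in 9 of 12 let-7 family hairpins (75%), against 151 of 798 hairpins with a listed 5p arm (18.9%).
MIRLET7A2: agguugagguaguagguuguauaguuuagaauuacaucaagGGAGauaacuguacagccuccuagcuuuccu
MIRLET7F1: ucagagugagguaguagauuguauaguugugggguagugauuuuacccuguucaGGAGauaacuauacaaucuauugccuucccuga
MIRLET7G: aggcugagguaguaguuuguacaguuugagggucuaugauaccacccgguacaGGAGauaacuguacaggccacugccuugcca

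Mature let-7 was not measured separately: these probe sets are annotated to precursor genes, and which processing form they detect is not given in the sources used here. Many of their signals lay below 5.04, the smallest of the array medians of unnamed probe sets. This limit was set with the values known. A level under it is not shown to lie above background. Where a group mean lies there, the change given is one of the array signal, with no fold, and does not measure the size of a change in RNA. This holds for every change of MIRLET7A1, MIRLET7A2, MIRLET7E and MIRLET7F2, and for the INM changes of MIRLET7F1. Of 18 let-7 precursor and host genes listed, 14 were measured. Of these, 8 fell and 1 rose in INM against hESC, in SMC against INM 3 rose and none fell, and in SMC against hESC 1 rose and 4 fell. Over all genes, 14.8% fell in INM against hESC, 9.94% rose in SMC against INM and 17.6% fell in SMC against hESC. The falls in INM came with falls of other small RNAs. Of the 10 precursor genes, 7 fell in INM against hESC (70.0%), with a median of -0.70, while 32.5% of 163 other microRNA genes fell, with a median of -0.26, and 60.6% of 175 small nucleolar RNA genes fell, with a median of -0.76. The 12083 unnamed probe sets had a median change of -0.30. The part of this shift in the let-7 values was not tested.

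MIRLET7F1 fell in INM. It gave signals of 7.35 and 7.22 on the hESC arrays, 4.82 and 4.71 on the INM arrays and 6.07 and 5.34 on the SMC arrays. The INM signals, both under 5.04, were lowest without overlap, with a change in signal of -2.52 against hESC (SE 0.23, limma adjusted p = 6.0e-04), and SMC changed by -1.58 against hESC (SE 0.23, limma adjusted p = 0.0025). MIRLET7G, with 5.79 and 5.05 in INM and 6.81 and 7.13 in hESC, changed by -1.55 (SE 0.25, limma adjusted p = 0.00475). Its host WDR82 read 9.61 and 9.57 in INM and 9.03 and 9.19 in hESC, a rise of 0.48 (limma adjusted p = 0.0197) that was lost without either hESC or either SMC array (adjusted p = 0.0525 to 0.121). MIRLET7D fell by 0.94 in INM against hESC. The falls of MIRLET7F1, MIRLET7G and MIRLET7D in INM were called in all 6 fits that left out 1 array. MIRLET7A1 (-0.68), MIRLET7A2 (-0.72), MIRLET7E (-0.67), MIRLET7I (-0.48) and the host MIRLET7BHG (-0.60) also fell in INM, but none of these was called without hESC replicate 1 (adjusted p = 0.117, 0.187, 0.118, 0.155 and 0.0508), and the first 4 were not called after median centring.

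MIRLET7A2 was the one precursor called higher in SMC against hESC. It read 4.56 and 4.28 on the hESC arrays, 3.84 and 3.56 on the INM arrays and 7.44 and 6.96 on the SMC arrays. The SMC arrays lay above all others, and all hESC and INM signals were below 5.04. The change in signal was 3.50 in SMC against INM (SE 0.20, limma adjusted p = 1.7e-04) and 2.78 in SMC against hESC (SE 0.20, limma adjusted p = 1.5e-04), and both were called in all 6 fits that left out 1 array. Its neighbours on chromosome 11, looked up after these values were seen, rose as well: MIR100 by 0.99 and MIR125B1 by 1.08 in SMC against INM, both with most signals under or near the same limit. Of the similar cluster on chromosome 21, MIRLET7C, MIR99A and MIR125B2 were not called. MIRLET7F1 (0.94, adjusted p = 0.0331) and MIRLET7F2 (0.68, adjusted p = 0.033) rose in SMC against INM, and neither was called after quantile normalization or without SMC replicate 1 (adjusted p = 0.113 and 0.195). In SMC against hESC, MIRLET7G (-1.05), MIRLET7I (-0.58) and MIRLET7BHG (-0.35) fell, and none of them was called without hESC replicate 1 or 2, or SMC replicate 2 (adjusted p = 0.0541 to 0.183).

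**Figure D3:**
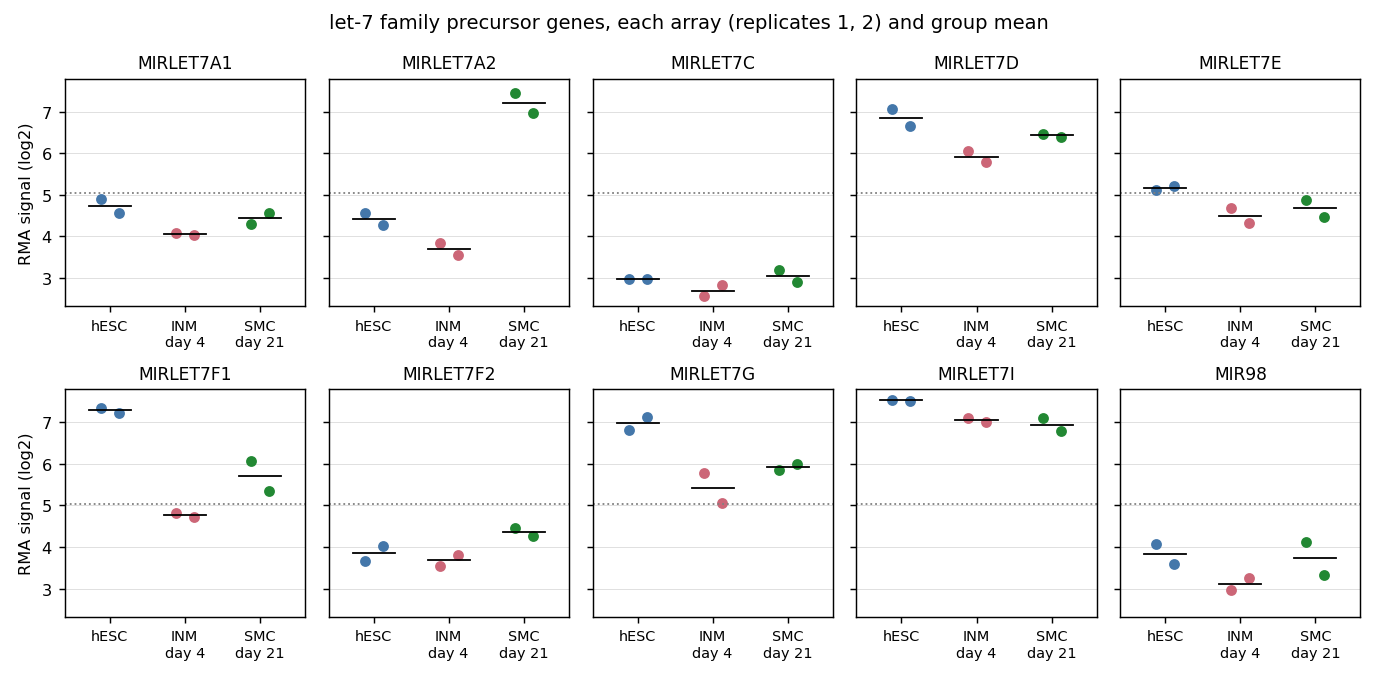
Log2 RMA signal of let-7 precursor genes on each of the 6 arrays, with a dotted line at 5.04, the limit from the unnamed probe sets. MIRLET7A2 lies under the line in hESC and INM and above it in SMC, at 7.44 and 6.96, and MIRLET7F1 is highest in hESC, at 7.35 and 7.22.

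Of 24 genes that process let-7 and other microRNAs, 23 were measured. There were 3 rises and 6 falls in INM against hESC, with a list median of -0.01, in SMC against INM 1 rose and 11 fell (median -0.44), and in SMC against hESC 1 rose and 12 fell (median -0.41). Over all genes, 33.8% were called in INM against hESC, 21.0% in SMC against INM and 37.2% in SMC against hESC. Neither this list nor those below were tested against these shares. L1TD1, an RNA-binding protein of pluripotent cells that associates with LIN28A, fell at each step, with a change of -2.77 in INM against hESC. Its SMC signals, 3.48 and 3.46, lay under the 5.04 limit, so its change in signal of -2.28 in SMC against INM does not measure the size of the fall in RNA. TRIM71, itself a let-7 target, read 10.70 and 10.57 on the hESC arrays, 8.49 and 9.41 on the INM arrays and 7.18 and 7.35 on the SMC arrays. Its change was -3.37 in SMC against hESC (SE 0.28, limma adjusted p = 2.5e-04), -1.68 in INM against hESC and -1.69 in SMC against INM, the INM call being lost without hESC replicate 1 (-1.62, adjusted p = 0.0505) and the SMC against INM call without SMC replicate 1 (-1.60, adjusted p = 0.0768) or replicate 2 (-1.77, adjusted p = 0.0642). MSI1, an RNA-binding protein of stem and progenitor cells, rose by 1.10 in INM against hESC and fell by 1.58 in SMC against INM. TRIM25, which activates the uridylation of let-7 precursors with LIN28A, changed by -0.72 in INM against hESC and by 0.94 in SMC against INM, and was not called in SMC against hESC (0.22, adjusted p = 0.211). Without hESC replicate 1 its INM change was -0.66 and not called (adjusted p = 0.0521).

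Among the other genes of this group, HNRNPA1, which binds a let-7 precursor loop, changed by -1.22 in SMC against hESC and was also called lower in INM against hESC, the second call being lost without either hESC array (adjusted p = 0.0628 and 0.0624). AGO4 rose by 0.75 in INM against hESC, a call lost without hESC replicate 2 (0.68, adjusted p = 0.0617), and fell by 0.86 in SMC against INM, a call lost without SMC replicate 1 or 2 (adjusted p = 0.0531 and 0.0827). AGO1 fell by 0.63 and RAN by 0.80 in SMC against hESC, and RAN was not called without hESC replicate 2 or SMC replicate 2 (adjusted p = 0.0895 and 0.0995). DICER1 (0.48 in INM against hESC) and AGO3 (0.48 in SMC against hESC) were each lost in 4 of 6 fits that left out 1 array (adjusted p up to 0.141). DICER1 was also called lower in SMC against INM (-0.52, adjusted p = 0.0295), a call lost without either hESC array (adjusted p = 0.0668) or SMC replicate 1 or 2 (adjusted p = 0.129 and 0.183).

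Of 34 other known let-7 targets, 31 were measured. Of these, 12 rose and 2 fell in INM against hESC, with a list median of 0.28, in SMC against INM 4 rose and 13 fell (median -0.39), and in SMC against hESC 12 rose and 8 fell (median 0.06). Over all genes, 18.9% rose and 14.8% fell in INM against hESC, and 9.94% rose and 11.1% fell in SMC against INM. In SMC against hESC, 19.7% rose and 17.6% fell. Members of the list thus rose and fell in every comparison, and the counts were not tested against these shares. HAND1, a transcription factor of early mesoderm, read 6.10 and 6.09 on the hESC arrays, 12.32 and 12.42 on the INM arrays and 7.31 and 7.14 on the SMC arrays, and PRTG, a cell adhesion protein, read 6.44 and 6.32 on the hESC arrays, 11.37 and 12.39 on the INM arrays and 6.88 and 7.09 on the SMC arrays. Both were highest in INM without overlap, with changes of 6.27 and 5.50 in INM against hESC and of -5.14 and -4.89 in SMC against INM. CDK6, a cell cycle kinase, rose by 2.15 and ZFP36L1, an RNA-decay factor, by 1.62 in INM against hESC. INSR fell by 0.98, a call lost without hESC replicate 2 (-0.84, adjusted p = 0.0633).

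In SMC against hESC the transcription factors NR6A1 (-3.39, SE 0.50) and MYCN (-2.91, SE 0.32) fell the most beside TRIM71. MYCN read 9.67 and 9.46 on the hESC arrays, 8.47 and 9.41 on the INM arrays and 6.37 and 6.94 on the SMC arrays, and like LIN28A it was higher in INM replicate 2. MYCN (-2.29) and NR6A1 (-2.41) also fell in SMC against INM, the NR6A1 call being lost without either hESC or either SMC array (adjusted p = 0.0532 to 0.122). IL6, a cytokine, rose by 2.95 in SMC against hESC and by 2.43 against INM, and TGFBR1, a TGF-beta receptor, by 1.82 and 1.12. CDKN1A (0.93) and MYC (0.47) rose in SMC against INM, and neither was called without SMC replicate 1 or 2 (adjusted p = 0.0779 to 0.196).

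**Figure D4:**
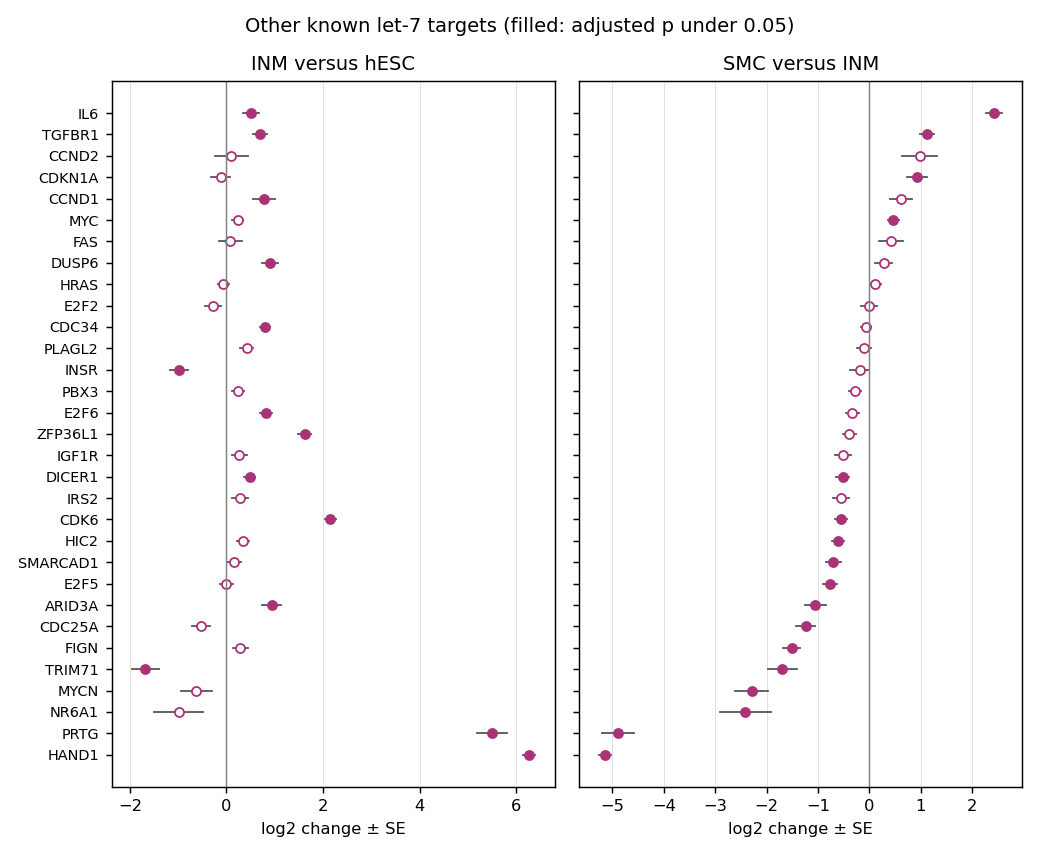
Log2 change with SE of the 31 other known let-7 targets, in INM against hESC on the left and in SMC against INM on the right, sorted by the right-hand values. Filled points had a limma adjusted p under 0.05. HAND1 (6.27 and -5.14) and PRTG (5.50 and -4.89) stand at the extremes of both panels.

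Of 12 transcripts known to be bound by IGF2BP proteins, 8 were measured. There were 2 rises and 1 fall in INM against hESC, in SMC against INM 1 rose and 2 fell, and in SMC against hESC 2 rose and 2 fell. The shares of all genes called were 33.8%, 21.0% and 37.2% in the same order, so these few calls do not mark out the list. CD44, a cell surface receptor, rose by 1.91 in INM against hESC and by 2.34 in SMC against hESC, the INM call being lost without either hESC array (adjusted p = 0.0866 and 0.0763). CTNNB1, encoding beta-catenin, rose by 0.75 in INM against hESC and fell by 0.77 in SMC against INM, the fall being lost without SMC replicate 2 (-0.68, adjusted p = 0.0795). ABCB1, a drug efflux pump, changed by -1.03 in SMC against hESC and by -0.88 in INM against hESC (lost without hESC replicate 1, adjusted p = 0.0651), with INM and SMC means under the 5.04 limit. MAPK4 changed by -1.08 in SMC against INM and by -0.67 in SMC against hESC, the second call being lost in 4 of 6 fits that left out 1 array (adjusted p = 0.0574 to 0.07). MYC rose by 0.71 in SMC against hESC.

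Of 23 paralogues and genes of the same protein families, 20 were measured. Of these, 3 rose and 5 fell in INM against hESC, in SMC against INM 1 rose and 4 fell, and in SMC against hESC 1 rose and 6 fell. These counts lay near the shares of all genes called, 33.8%, 21.0% and 37.2% in the same order. ARID5B, a relative of ARID3B, went the other way: it read 9.99 and 9.94 in SMC, against 6.18 and 6.22 in hESC, with INM in between, with no overlap and a change of 3.77 in SMC against hESC (SE 0.11, limma adjusted p = 1.2e-05). ARID3A, a close paralogue, rose by 0.94 in INM against hESC and fell by 1.05 in SMC against INM, calls lost without either hESC array (adjusted p = 0.0842 and 0.073) and without either SMC array (adjusted p = 0.106 and 0.0871). ARID2 rose by 0.66 in INM against hESC and fell by 1.46 in SMC against INM. The nucleosome-binding gene HMGN5 fell by 1.82 in INM against hESC and by 1.14 in SMC against hESC, the second call lost without hESC replicate 2 or SMC replicate 2 (adjusted p = 0.0622 and 0.0646). HMGB3 fell by 1.18 and CARHSP1, a cold-shock domain protein as the LIN28 proteins are, by 0.90 in SMC against hESC, and each fell in SMC against INM (-0.67 and -0.58), calls lost in 4 of 6 fits that left out 1 array (adjusted p up to 0.145). The smaller falls of HMGB3 (-0.51), HMGB4 (-0.49), HMGN3 (-0.77) and YBX2 (-0.84) in INM against hESC were each lost without hESC replicate 1 (adjusted p = 0.142, 0.137, 0.0866 and 0.0882), with both HMGB4 means under the 5.04 limit, and that of YBX2 in SMC against hESC (-0.93) without hESC replicate 1 or SMC replicate 2 (adjusted p = 0.0545 and 0.0621).

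Of 11 other oncofetal genes, 9 were measured, and the few called did not share 1 direction, as was so for genes in general. DLK1, an imprinted transmembrane protein of fetal tissues, read 6.25 and 6.10 on the hESC arrays, 8.18 and 9.39 on the INM arrays and 12.40 and 12.47 on the SMC arrays. It was higher at each stage without overlap, by 6.26 in SMC against hESC (SE 0.35, limma adjusted p = 5.9e-05), by 3.65 in SMC against INM and by 2.61 in INM against hESC. SALL4, a transcription factor of embryonic cells that is also on the stem cell marker list, fell by 1.97 in SMC against hESC and by 1.68 in SMC against INM. NR6A1, described among the let-7 targets, was the other gene called lower in both SMC comparisons. CEACAM5 fell in INM, where its mean lay under the 5.04 limit, against hESC (-0.45, adjusted p = 0.0492) and was called in none of the 6 fits that left out 1 array (adjusted p = 0.0501 to 0.183).

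Promoter sequence, from 250 bases before to 50 after a start, was listed in RefSeq for 4 of the 8 genes, with 7 starts (GRCh38.p14). LIN28B and IGF2BP3, which fell in SMC, are shown beside IGF2BP2, which was not called. Capitals mark GC boxes (GGGCGG, or CCGCCC on the other strand), E-boxes (CACGTG, the same on both strands), CCAAT boxes (CCAAT or ATTGG) and TATA boxes (TATAAA or TTTATA), and matches of different motifs may overlap. The LIN28B promoter (chr6:104940715-104941014, plus strand) held 2 GC boxes and 73.0% G and C. The IGF2BP3 promoter (chr7:23470442-23470741, minus strand) held 2 E-boxes and 56.3% G and C. The IGF2BP2 promoter (chr3:185824993-185825292, minus strand) held 7 GC boxes and 80.7% G and C. Of the starts not printed, the upstream one of HMGA1, which also fell in SMC, held 5 GC boxes, 1 CCAAT box and 72.0% G and C (chr6:34236623-34236922, plus strand), and the other LIN28B start held 1 E-box and 1 CCAAT box. The other HMGA1 start held 1 CCAAT box, and the other IGF2BP2 start 1 CCAAT box and 1 TATA box. GC boxes were thus present in some promoters of genes that fell and of the gene not called. The IGF2BP3 promoter and the other starts of LIN28B, HMGA1 and IGF2BP2 held none. Over 35116 promoters of the same length, 45% held a GC box, 7.26% an E-box, 34.6% a CCAAT box and 11.5% a TATA box. A match is a description of letters and not of binding.
LIN28B: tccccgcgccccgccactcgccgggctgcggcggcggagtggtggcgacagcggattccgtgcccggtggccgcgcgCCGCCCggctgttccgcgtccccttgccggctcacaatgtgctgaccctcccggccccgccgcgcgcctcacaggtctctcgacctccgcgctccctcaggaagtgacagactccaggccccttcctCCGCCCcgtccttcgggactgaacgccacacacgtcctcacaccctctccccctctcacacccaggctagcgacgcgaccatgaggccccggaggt
IGF2BP3: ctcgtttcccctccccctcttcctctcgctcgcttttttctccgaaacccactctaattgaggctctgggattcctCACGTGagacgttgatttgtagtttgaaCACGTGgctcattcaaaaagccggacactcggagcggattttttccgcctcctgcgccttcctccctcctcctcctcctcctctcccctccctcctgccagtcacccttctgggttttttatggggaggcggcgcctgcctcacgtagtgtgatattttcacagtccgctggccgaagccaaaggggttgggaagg
IGF2BP2: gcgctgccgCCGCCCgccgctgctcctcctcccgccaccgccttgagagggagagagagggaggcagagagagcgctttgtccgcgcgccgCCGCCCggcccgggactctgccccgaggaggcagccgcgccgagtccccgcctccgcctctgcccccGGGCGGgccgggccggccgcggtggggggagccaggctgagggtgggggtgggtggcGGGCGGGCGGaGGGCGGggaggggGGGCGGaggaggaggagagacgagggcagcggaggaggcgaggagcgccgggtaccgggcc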

How the data were processed

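Total RNA of 6 samples was measured on Affymetrix arrays after biotin labelling. The deposited table holds log2 values for 33297 probe sets, which ran from 1.36 to 14.09. That scale was inferred from their range. RMA and limma are named, without versions, per the submitters' processing notes. RMA settings and probe design: not given in the sources used here. Scanner files were not used here.

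Probe sets were named through the platform annotation: 19460 carried 1 symbol, 1754 several and 12083 none. Symbols were updated by Entrez identifier to a RefSeq table of GRCh38.p14 (19429 matched), which also gave gene coordinates and sequences. For 769 genes with more than 1 probe set, that with the highest mean was kept, which left 18417 genes. No signal filter was applied.

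A model of group means over 6 arrays was fitted in limma 3.58.1 under R 4.3.3 (lmFit, eBayes, 3 residual and 3.56 prior degrees of freedom), with two-sided tests and p-values adjusted by the Benjamini-Hochberg method over 18417 genes. The fit was tested on simulated data. Precision is limited by the number of arrays. Alternatives were median centring, quantile normalization, a low-signal filter, the mean of a gene's probe sets, all probe sets tested, an intensity trend, only the 2 groups compared, array weights, the replicate number as a block, and leaving out each array.

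The members, the gene lists and the tests were chosen with earlier results of these data known. Named genes were all members, up to 5 called genes with the largest change per list and comparison, every gene behind a count of 5 or fewer, and the 3 nearest profiles of each member called by the F test. Outside this rule, and chosen after their values were seen, are the chromosome 11 and 21 microRNA neighbours, the INM changes of MIRLET7E, MIRLET7I, MIRLET7BHG and TRIM25, the SMC against INM change of DICER1, and the marker genes.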

Additional observations from a re-analysis of the deposited data

How the results depend on the processing

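The count of the 7 genes called in INM against hESC moved with several choices. It was 2 in the reported fit, 4 after quantile normalization, 1 with only the 2 groups, and 0 to 5 in fits leaving out an array: 0 without hESC replicate 1 or 2, 5 without INM replicate 2 and 1 without SMC replicate 1 or 2. The share of all genes called moved too, to 16.0% without hESC replicate 1 and 40.8% without INM replicate 1 or 2, against 33.8% with all arrays. The genes gained after quantile normalization were IGF2BP3 (-0.60, adjusted p = 0.047) and ARID3B (-0.62, adjusted p = 0.042). Leaving out 1 array gave 4 to 6 calls in SMC against INM, and 5 to 6 in SMC against hESC and in the F test. Of 315 values of single members under alternatives, 280 kept their direction and call, 23 lost a call, 7 gained one and 5 turned. Leaving out 1 array moved IGF2BP2, never called, between -0.0018 and 0.24 in INM against hESC, -0.09 and 0.03 in SMC against INM, and -0.03 and 0.21 in SMC against hESC. All 5 turned values were of this gene: -0.0018 in INM against hESC and -0.03 in SMC against hESC, both without hESC replicate 1, and in SMC against INM 0.01 after quantile normalization, 0.01 without INM replicate 2 and 0.03 without SMC replicate 1. Deviations of replicate 1 correlated at 0.074 for INM with hESC, -0.119 for SMC with hESC and -0.067 for SMC with INM. These values show no strong shift shared by arrays of the same replicate number. They cannot settle whether such samples were handled together. With the replicate number as a block, 2 genes were called in INM against hESC and 6 in each of the other comparisons and the F test. Median centring moved the median of all genes in INM against hESC from -0.03 to 0.16, and the member median there to -0.34. List counts when 1 array was left out ran as follows. MicroRNA processing genes gave 3 to 11 (from 9) in INM against hESC, 3 to 17 (from 12) in SMC against INM and 4 to 16 (from 13) in SMC against hESC. Let-7 precursor and host genes gave 3 to 9 (from 9) in INM against hESC, 1 to 6 (from 3) in SMC against INM and 2 to 9 (from 5) in SMC against hESC. Other let-7 targets gave 7 to 19 (from 14) in INM against hESC, 6 to 22 (from 17) in SMC against INM and 15 to 22 (from 20) in SMC against hESC. IGF2BP-bound transcripts gave 1 to 5 (from 3) in INM against hESC, 1 to 5 (from 3) in SMC against INM and 3 to 5 (from 4) in SMC against hESC. Paralogues gave 3 to 12 (from 8) in INM against hESC, 2 to 10 (from 5) in SMC against INM and 4 to 8 (from 7) in SMC against hESC. Other oncofetal genes gave 1 to 5 (from 2) in INM against hESC, 2 to 6 (from 3) in SMC against INM and 3 to 5 (from 3) in SMC against hESC. Mitosis genes gave 0 to 17 (from 1) in INM against hESC, 0 to 20 (from 1) in SMC against INM and 1 to 20 (from 7) in SMC against hESC. With only the 2 groups compared, counts were 7 processing genes, 3 paralogues and 0 mitosis genes in SMC against INM, 9 precursor genes, 5 other oncofetal genes and 20 mitosis genes in SMC against hESC, and 1 other oncofetal and 0 mitosis genes in INM against hESC. With median centring they were 5 precursor genes, 6 IGF2BP-bound transcripts and 0 mitosis genes in INM against hESC, and 7 processing and 4 mitosis genes in SMC against hESC. With array weights they were 9 precursor and 17 mitosis genes in SMC against hESC, 1 precursor and 3 mitosis genes in SMC against INM, and 1 other oncofetal gene in INM against hESC. The precursor count in SMC against INM was 1 with the signal filter and with all probe sets tested, where the mitosis count was 0. The count of other oncofetal genes in INM against hESC was 1 with the signal filter, all probe sets, the intensity trend and the replicate block. The fits of only 2 groups called 50.0% of all genes in SMC against hESC. They called 24.4% in INM against hESC and 13.8% in SMC against INM. With array weights, 49.2% of all genes were called in SMC against hESC. Of 92 named changes of list genes, 51 were called in all 6 fits that left out 1 array and 0 turned. A fit that left out 1 array held 1 array of that group and took its error from the other groups. Its calls and counts therefore do not include the spread of that group. The causes of these changes were not tested. Scanner flags and signal over background were not used here, so low signals such as the let-7 precursors are not shown to lie above background, and with 2 arrays per group the INM spread weighs on every shared error.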
